A study of Mus musculus with 16 samples.

Results

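The genes described here are 10 enzymes of the antioxidant and heme response, Hmox1, Nqo1, Gclc, Gclm, Txnrd1, Srxn1, Sod1, Sod2, Prdx1 and Gpx1. They were selected by name, and all 10 were found among the 24411 genes of the deposited count table. Their transcripts were measured by RNA sequencing in 16 libraries of mouse muscle stem cells (MuSCs), the PAX7-expressing cells that rebuild muscle after injury. The libraries form 4 groups of 4: wild-type control or TRF2 knockout mice, each uninjured or 3 days after notexin injury (3 DPI). Per the study's methods, the knockout (TRF2MuSC-cKO) carried a floxed Terf2 gene, which encodes the telomere protein TRF2, and a tamoxifen-inducible Pax7-CreERT2 driver, and tamoxifen was begun at 8 to 10 weeks of age. Mice of 3 months are named there for an expression analysis of MuSCs from both injury states, and the labels tie no age to a library. Whether the control mice of these libraries carried Cre or received tamoxifen was not given in the sources used here. Notexin, a snake toxin that destroys myofibers, was given as 10 µl into the tibialis anterior muscle, and cells were purified by fluorescence-activated sorting on VCAM1 or CD34 together with α7-integrin, with cells bearing CD45, CD31, CD11b or Sca1 removed. Nothing in the labels says which libraries come from separate mice, so p-values measure the spread between these libraries.

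Most of these enzymes are textbook targets of NRF2 (encoded by Nfe2l2), a transcription factor that KEAP1 holds at a low level until oxidants or electrophiles modify KEAP1. NRF2 then pairs with small MAF proteins on antioxidant response elements, which the heme-sensing repressor BACH1 can occupy in its place. HMOX1 cleaves heme to biliverdin, carbon monoxide and iron. GCLC and GCLM form the enzyme that starts glutathione synthesis, and GPX1 spends glutathione on peroxides. TXNRD1 recharges thioredoxin, PRDX1 uses thioredoxin to reduce peroxides, SRXN1 rescues overoxidised peroxiredoxins, NQO1 reduces quinones, and SOD1 and SOD2 turn superoxide into hydrogen peroxide in the cytosol and in mitochondria. Damaged muscle releases the heme protein myoglobin, and macrophages that clear debris are a known site of HMOX1.

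Library totals ran from 620506 to 1351130 estimated counts, so single genes rest on few counts. Across the 16 libraries Hmox1 had 4 to 264 counts and Sod2 1 to 100 counts. The third TRF2MuSC-cKO library at 3 DPI stood apart: 15389 genes had a count there, against at least 19996 in each of the other 15 libraries, and its mean correlation with its own group was 0.466, against 0.625 to 0.654 for the other 3. Levels below are CPM, counts relative to library size with scaling for library composition over all 16 libraries, and are listed for replicates 1 to 4 in that order. Terf2, the deleted gene, was at 71.5, 94.5, 66.3 and 73.1 CPM in uninjured controls and at 49.7, 46.8, 58.7 and 27.2 CPM in uninjured TRF2MuSC-cKO. All 4 knockout libraries were thus below all 4 controls, but the log2 difference of -0.62 (SE 0.27) did not pass across all genes (adjusted p = 0.199, edgeR). At 3 DPI Terf2 was at 35.5, 48.6, 48.2 and 42.8 CPM in control and at 52.6, 21.9, 66.9 and 89.7 CPM in the libraries labelled TRF2 knockout. The groups overlapped and the estimate was above 0 (log2 0.44, SE 0.42, adjusted p = 0.755), so the genotype at 3 DPI is the label's and Terf2 transcript was not lower there.

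At 3 DPI 5 of the 10 genes rose in control MuSCs: Hmox1 by 19.2-fold, Gpx1 by 13.3-fold, Prdx1 by 4.00-fold, Gclm by 3.40-fold and Txnrd1 by 1.66-fold. None fell. A gene is called here when edgeR's quasi-likelihood test gave an adjusted p under 0.02 and the fold change was over 1.5, which 10.8% of the 15356 genes tested met in the upward and 9.46% in the downward direction. In TRF2MuSC-cKO 2 of the 10 rose, Hmox1 by 12.1-fold and Gpx1 by 9.23-fold, where 2.43% of 14578 genes were called higher and 1.61% lower. The median log2 change of the 10 genes was 0.73 in control, against 0.07 over all genes tested, and 0.82 in TRF2MuSC-cKO, against 0.01 over all genes tested. Groups without overlap, all 4 injured libraries above all 4 uninjured ones, were found for 6 of the 10 genes in control and 3 of the 10 in TRF2MuSC-cKO. Over all genes tested, that held for 12.0% and 6.90%. With control and TRF2MuSC-cKO compared directly, 0 of the 10 genes were called in either injury state.

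**Figure D1:**
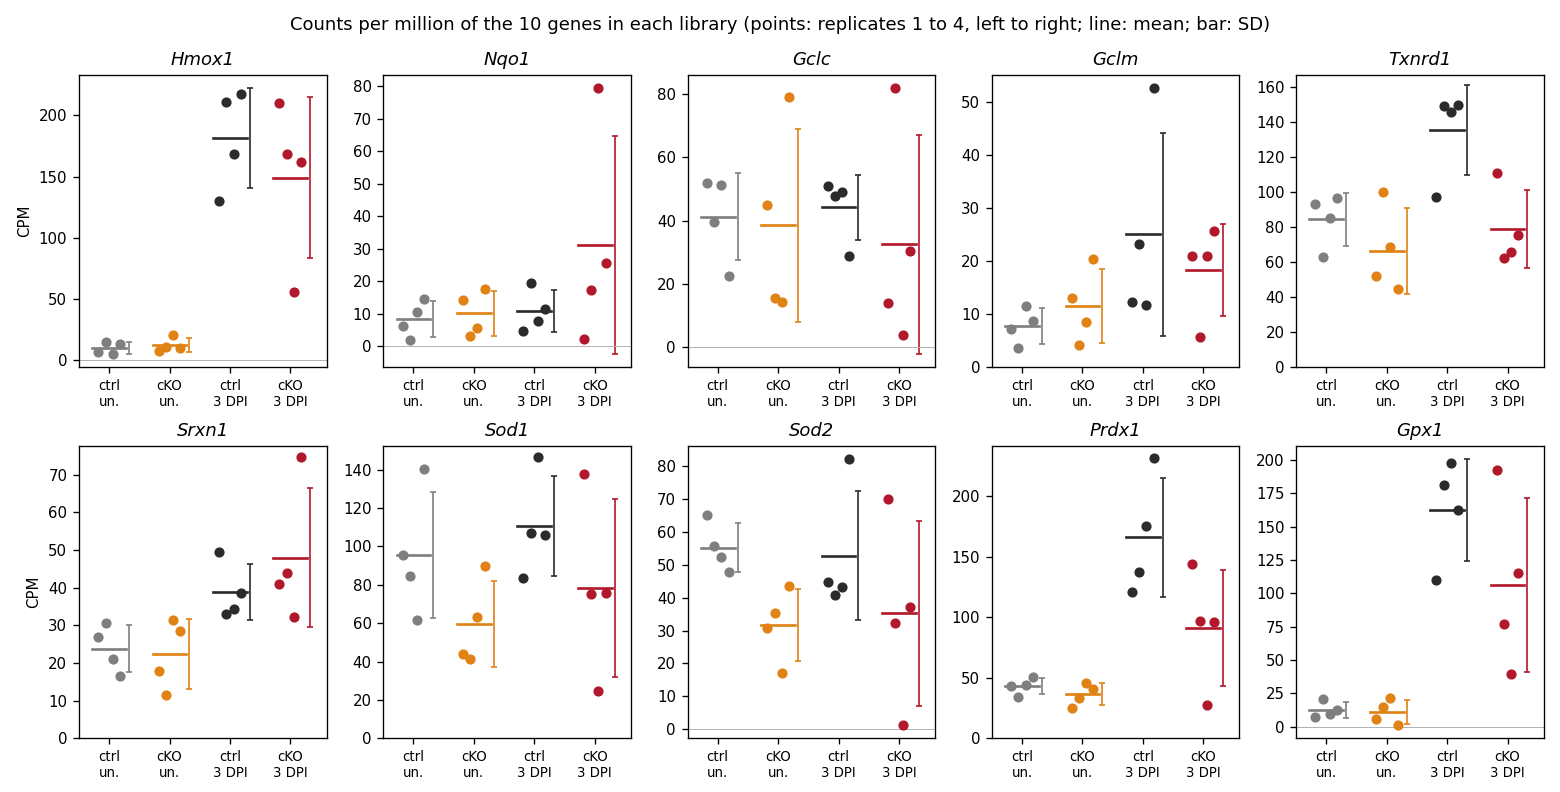
CPM of each of the 10 genes (vertical axis, linear) in the 16 libraries, in 4 groups (ctrl, control; cKO, TRF2MuSC-cKO; un., uninjured). Points are replicates 1 to 4 from left to right, the line is the mean and the bar the SD of 4 libraries. In Hmox1 and Gpx1 every library at 3 DPI is above every uninjured library, in Sod1, Gclc and Nqo1 the groups overlap, and the third TRF2MuSC-cKO library at 3 DPI is the lowest of its group in Hmox1, Gpx1, Prdx1, Sod1, Sod2, Gclc and Srxn1 and the highest in Nqo1.

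The promoters of the genes were searched for the core of the antioxidant response element, TGACNNNGC, and for the AP-1 element, TGANTCA, on both strands, where N is any base. Windows of 300 bases, from 250 before to 50 after the RefSeq start on GRCm38.p6, were given for 8 of the 10 genes (10 windows, 3 of them for Txnrd1), with none for Hmox1 and Gclc. The antioxidant core was present in 1 window each of 5 genes, namely Srxn1, Gclm, Prdx1, Txnrd1 and Sod1. Of all 32851 promoter windows of that length 12.4% hold it. These 5 are shown because they carry the letters that NRF2 is known for, and 3 of them (Gclm, Prdx1, Txnrd1) rose in injured controls. Each sequence is a stretch of 101 bases, 5′ to 3′ on the plus strand, which is the coding strand of all 5 genes, with the core in capitals. In each of them the core lies on the opposite strand and so reads GCNNNGTCA.
Prdx1, chr4:116685420-116685520: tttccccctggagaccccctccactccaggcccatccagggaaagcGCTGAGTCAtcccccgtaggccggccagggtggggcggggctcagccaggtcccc
Gclm, chr3:122245377-122245477: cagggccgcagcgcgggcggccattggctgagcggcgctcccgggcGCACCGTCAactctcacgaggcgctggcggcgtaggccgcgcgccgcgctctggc
Txnrd1, chr10:82859068-82859168: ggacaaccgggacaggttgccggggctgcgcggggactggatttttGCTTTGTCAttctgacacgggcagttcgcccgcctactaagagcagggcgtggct
Srxn1, chr2:152105473-152105573: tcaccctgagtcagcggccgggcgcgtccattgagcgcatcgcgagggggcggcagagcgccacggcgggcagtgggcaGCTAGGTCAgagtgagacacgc
Sod1, chr16:90220660-90220760: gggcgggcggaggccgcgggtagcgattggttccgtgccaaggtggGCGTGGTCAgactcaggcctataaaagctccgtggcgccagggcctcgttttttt
The core begins 133 bases before the start in Prdx1, 134 before in Gclm and 56 before in Sod1, and 28 bases after it in Srxn1. In Txnrd1 it begins 92 bases before a start that lies inside the gene, and the window at the gene's outermost start lacks it. In Prdx1 the core overlaps an AP-1 element. Prdx1 and Srxn1 each had 2 AP-1 elements in the window and the other windows had none, where 7.81% of all windows hold one. The letters of the antioxidant core were not in the windows of Gpx1, Nqo1 and Sod2 or in the other 2 windows of Txnrd1. A match of letters is a description of the sequence, and binding was not measured here.

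Hmox1 (ENSMUSG00000005413.8, chr8:75093621-75100589, plus strand, GRCm38) encodes the inducible heme oxygenase and showed the largest change of the 10 genes. In control MuSCs it was at 6.25, 14.4, 4.65 and 12.7 CPM when uninjured and at 129.7, 211, 168 and 217 CPM at 3 DPI. The lowest injured library was thus far above the highest uninjured one. The log2 change was 4.27 (SE 0.29, adjusted p = 6.68e-16, n = 4 per group), the 78th highest of 15356 genes. In TRF2MuSC-cKO, Hmox1 was at 7.10, 10.4, 20.04 and 9.53 CPM when uninjured and at 210.3, 168, 55.8 and 162 CPM at 3 DPI. Again no injured library overlapped the uninjured ones, although the third injured library had a level well under those of the others. That change was 3.59 (SE 0.47, adjusted p = 0.000276) and ranked 57th of 14578 genes. Without that library the change was 3.90 (adjusted p = 4.91e-10), and over its 17 alternatives the adjusted p ran from 8.74e-11 to 0.028. Between genotypes, the 3 DPI levels overlapped (log2 -0.25, SE 0.34, adjusted p = 0.841), and without the third TRF2MuSC-cKO library the difference was 0.003. In uninjured muscle Hmox1 had too few counts for the test across all genes, and an exact two-sided permutation test of its log2 CPM gave p = 0.514.

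Of the glutathione enzymes, Gpx1 was called on injury in both genotypes, Gclm in control, and Gclc in no comparison. Gpx1 (ENSMUSG00000063856.7, chr9:108338903-108340343, plus strand), a selenium-dependent glutathione peroxidase, was at 7.15, 20.7, 9.30 and 12.7 CPM in uninjured controls and at 109.6, 181, 198 and 162 CPM at 3 DPI. The groups were far apart, with a log2 change of 3.73 (SE 0.29, adjusted p = 2.34e-14). In TRF2MuSC-cKO it was at 5.92, 14.5, 21.5 and 1.36 CPM when uninjured, the last of these resting on 1 count, and at 193, 77.3, 39.7 and 115 CPM at 3 DPI. The injured libraries were far apart from one another but all lay above the uninjured ones. The log2 change was 3.21 (SE 0.65, adjusted p = 0.0074). This call was lost without uninjured replicate 1, 2 or 4 or injured replicate 1 or 4 (log2 2.75 to 3.38, adjusted p = 0.0242 to 0.0494), and over all 17 alternatives the adjusted p ran from 2.50e-06 to 0.122.

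Gclm (ENSMUSG00000028124.15, chr3:122245557-122270732, plus strand), the modifier subunit of glutamate-cysteine ligase, was at 7.15, 3.602, 11.6 and 8.77 CPM in uninjured controls and at 12.4, 23.3, 11.8 and 52.7 CPM at 3 DPI. The injured libraries were all higher, 2 of them by less than 1 CPM over the highest uninjured library, and replicate 4 was well above the other 3. The log2 change of 1.76 (SE 0.50, adjusted p = 0.00651) was 1.07 without that replicate (adjusted p = 0.243) and 1.49 without uninjured replicate 2 (adjusted p = 0.0337), and both removals ended the call. Over its 17 alternatives the adjusted p ran from 0.00389 to 0.243. In TRF2MuSC-cKO Gclm was at 13.02, 4.16, 8.59 and 20.4 CPM when uninjured and at 21.03, 5.77, 21.1 and 25.6 CPM at 3 DPI. These groups overlapped (log2 0.61, SE 0.74, adjusted p = 0.781). The gene overlaps Gm6061, a transcribed pseudogene on its own strand, so the split of reads between them is uncertain.

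Gclc (ENSMUSG00000032350.9, chr9:77754535-77794485, plus strand), the catalytic subunit of the same enzyme, did not follow Gclm. It was at 51.8, 39.6, 51.2 and 22.4 CPM in uninjured controls and at 51.0, 47.7, 49.2 and 28.8 CPM at 3 DPI, nearly the same range (log2 0.12, SE 0.30, adjusted p = 0.84). In TRF2MuSC-cKO the values were 45.0, 15.6, 14.3 and 79.0 CPM when uninjured and 14.02, 81.9, 3.72 and 30.3 CPM at 3 DPI. The spread within each knockout group was wider than any shift between them (log2 -0.30, SE 0.77, adjusted p = 0.914).

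In the thioredoxin system, Prdx1 and Txnrd1 rose in injured controls, and none of the 3 genes was called in TRF2MuSC-cKO. Prdx1 (ENSMUSG00000028691.12, chr4:116685544-116700822, plus strand), a cytosolic peroxiredoxin, was at 42.9, 34.2, 44.2 and 50.7 CPM in uninjured controls and at 120.5, 137, 175 and 231 CPM at 3 DPI. Every injured library was more than 2-fold above the highest uninjured one, and the log2 change was 2.00 (SE 0.23, adjusted p = 2.28e-09). In TRF2MuSC-cKO it was at 24.9, 33.2, 45.8 and 40.9 CPM when uninjured and at 144, 96.9, 27.3 and 95.5 CPM at 3 DPI. Here 3 injured libraries were above all uninjured ones and the third lay among them. The log2 change of 1.26 (SE 0.45, adjusted p = 0.15) was 1.59 without that library (adjusted p = 0.000653), so that Prdx1 was then called, with 3 of the 10 genes called in all. It was also called in 1 fit over all 16 libraries (log2 1.33, adjusted p = 0.0171). The adjusted p of Prdx1 ran from 0.000653 to 0.416 over 18 alternatives.

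Txnrd1 (ENSMUSG00000020250.10, chr10:82833951-82897712, plus strand), the cytosolic thioredoxin reductase, was at 92.9, 63.0, 84.9 and 96.5 CPM in uninjured controls and at 97.3, 149, 146 and 149.8 CPM at 3 DPI. Injured replicates 2 to 4 were close to each other, while replicate 1 was only just above the highest uninjured library. The log2 change was 0.73 (SE 0.21, adjusted p = 0.00757). The call was lost without uninjured replicate 2 or without injured replicate 2, 3 or 4 (log2 0.57 to 0.69, adjusted p = 0.0297 to 0.0776), and the adjusted p ran from 0.000506 to 0.135 over 18 alternatives. In TRF2MuSC-cKO Txnrd1 was at 52.1, 99.7, 68.7 and 44.9 CPM when uninjured and at 111, 62.3, 65.7 and 75.7 CPM at 3 DPI, with the groups overlapping (log2 0.18, SE 0.35, adjusted p = 0.882). Eid3, a gene within Txnrd1 on its strand, could share reads with it.

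Srxn1 (ENSMUSG00000032802.8, chr2:152105516-152111376, plus strand), the sulfiredoxin that reactivates peroxiredoxins such as PRDX1, was separated by injury in both genotypes without passing the test. It was at 26.8, 30.6, 20.9 and 16.6 CPM in uninjured controls and at 49.4, 33.1, 34.4 and 38.7 CPM at 3 DPI (log2 0.73, SE 0.33, adjusted p = 0.11). In TRF2MuSC-cKO it was at 17.8, 11.4, 31.5 and 28.6 CPM when uninjured and at 40.9, 43.8, 32.2 and 74.6 CPM at 3 DPI (log2 1.04, SE 0.49, adjusted p = 0.31). In both genotypes the lowest injured library was above the highest uninjured one by less than 3 CPM. The exact two-sided permutation p was 0.0286 in each, the smallest that 4 against 4 libraries allow.

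Nqo1, Sod1 and Sod2 did not pass in either injury comparison. Nqo1 (ENSMUSG00000003849.8, chr8:107388225-107403206, minus strand), a quinone reductase often read as a marker of NRF2 activity, had 2 to 64 counts per library. It was at 6.25, 1.80, 10.5 and 14.6 CPM in uninjured controls and at 4.63, 19.4, 7.87 and 11.5 CPM at 3 DPI, with full overlap (log2 0.48, SE 0.61, adjusted p = 0.658). In TRF2MuSC-cKO it was at 14.2, 3.12, 5.73 and 17.7 CPM when uninjured and at 2.34, 17.3, 79.3 and 25.6 CPM at 3 DPI. The highest of these is the third injured library, in which most of the other genes were low. The log2 change of 1.56 (SE 0.88, adjusted p = 0.436) was 0.53 without it.

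Sod1 (ENSMUSG00000022982.10, chr16:90220754-90226329, plus strand), the cytosolic copper-zinc superoxide dismutase, was at 95.6, 84.6, 61.6 and 140.4 CPM in uninjured controls and at 83.4, 107, 147 and 106 CPM at 3 DPI. In TRF2MuSC-cKO it was at 43.8, 41.6, 63.0 and 89.9 CPM when uninjured and at 138, 75.0, 24.8 and 75.7 CPM at 3 DPI. The groups overlapped in both genotypes (log2 0.26, SE 0.23, adjusted p = 0.471 in control and log2 0.33, SE 0.46, adjusted p = 0.81 in TRF2MuSC-cKO). The 3′ end of Sod1 overlaps Scaf4 on the opposite strand.

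Sod2 (ENSMUSG00000006818.5, chr17:13006846-13040063, plus strand), the mitochondrial manganese enzyme, was at 65.2, 55.8, 52.3 and 47.8 CPM in uninjured controls and at 44.8, 40.8, 43.3 and 82.3 CPM at 3 DPI. Injured replicate 4 lay above all uninjured libraries and the other 3 below them, and the log2 change was -0.01 (SE 0.27, adjusted p = 0.982). In TRF2MuSC-cKO it was at 30.8, 35.3, 17.2 and 43.6 CPM when uninjured and at 70.1, 32.3, 1.24 and 37.3 CPM at 3 DPI, the third injured value being 1 count. The groups overlapped (log2 0.08, SE 0.70, adjusted p = 0.98).

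**Figure D2:**
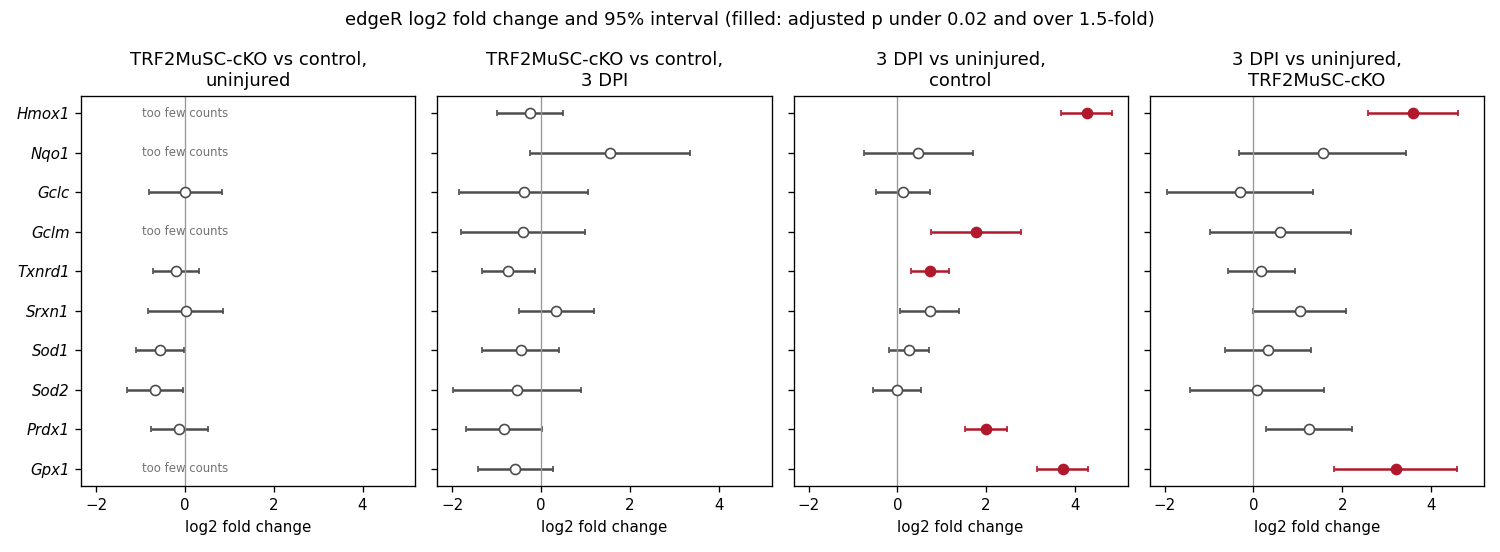
Log2 fold change (horizontal axis) and 95% interval of the 10 genes from edgeR in 4 comparisons, each fitted on 8 libraries, with filled red points for genes called. Between genotypes in uninjured MuSCs 6 of the 10 are drawn, as Hmox1, Nqo1, Gclm and Gpx1 were not tested there. Hmox1 and Gpx1 are called in both injury comparisons (Hmox1 4.27 in control and 3.59 in TRF2MuSC-cKO), and no gene is called between genotypes.

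Per length of transcript the genes changed rank with injury. Length-scaled levels (TPM), computed here from the rescaled count table as each gene's share of its library, allow levels to be compared between genes. In uninjured controls Sod1 was the most abundant at 371 ± 102 TPM (SD, n = 4), followed by Prdx1 at 71.0 ± 9.91 and Txnrd1 at 54.7 ± 8.59 TPM. The next were Sod2 (32.6 ± 4.89), Gpx1 (28.6 ± 14), Gclc (27.5 ± 10.4), Srxn1 (19.2 ± 5.35), Hmox1 (13.9 ± 6.72), Nqo1 (12.3 ± 7.88) and Gclm (8.59 ± 4.17 TPM). In that order the library ranges of Sod1 and Prdx1 and of Txnrd1 and Sod2 were separate, and every other pair of neighbours overlapped. At 3 DPI Sod1 stood at 438 ± 85.6 TPM, and Gpx1 (376 ± 70.4), Prdx1 (277 ± 65.3) and Hmox1 (271 ± 47.5 TPM) followed it. The ranges of these 4 neighbours overlapped in turn. Txnrd1 (90.4 ± 11.7) was separate from both of its neighbours, and Srxn1, Sod2, Gclc, Gclm and Nqo1 lay between 16.4 and 32.6 TPM with overlapping ranges. In uninjured TRF2MuSC-cKO only Sod1 (288 ± 100 TPM) was separate from its neighbour Prdx1 (74.3 ± 17.0). At 3 DPI in TRF2MuSC-cKO the order began with Sod1 (345 ± 185), Gpx1 (275 ± 152), Hmox1 (251 ± 99.2) and Prdx1 (170 ± 81.8 TPM), and all neighbours overlapped.

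Markers of macrophages and monocytes moved with the same libraries, although the sort removed cells bearing CD45 and CD11b. The summed level of 16 such markers was 132 to 213 CPM in uninjured controls and 6007 to 7598 CPM in injured controls, a 44.2-fold difference of means on the log2 scale. In TRF2MuSC-cKO the sum was 227 to 279 CPM when uninjured and 2514 to 7145 CPM at 3 DPI, 19.2-fold apart. All 16 markers were called higher in injured controls and 13 of 16 in injured TRF2MuSC-cKO. At most 1 of the 16 was at 0 in any uninjured library (Lyz2, C1qb, C1qc or Tyrobp) and none in any injured library. Lyz2, the lysozyme of myeloid cells and the most abundant of them by TPM in injured controls, rose by 8.77 on the log2 scale in control (SE 0.31, adjusted p = 6.45e-25), and Cd68 and C1qa by 6.55 and 5.67. The sum of 10 MuSC markers fell over the same comparisons, from 3394 to 5531 CPM down to 1044 to 1519 CPM in control and from 2063 to 2938 CPM down to 491 to 680 CPM in TRF2MuSC-cKO. Of these markers 9 of 10 and 7 of 10 were called lower, with Pax7 (log2 -2.94 in control and -3.21 in TRF2MuSC-cKO) among them.

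The third TRF2MuSC-cKO library at 3 DPI had the lowest macrophage sum of the injured libraries, 2514 CPM, and also their lowest Hmox1, Gpx1 and Prdx1. Erythroid markers, including the globins, showed no such shift: their sum of 7 genes was 44.1 to 73.3 CPM in uninjured and 34.6 to 97.4 CPM in injured controls, with 1 to 3 of the 7 at 0 in each injured control. Neutrophil markers (5 genes) summed to 12.8 to 32.4 CPM in uninjured and 74.1 to 118 CPM in injured controls. Of 6 fibroadipogenic markers 5 were called higher in injured controls, with Col1a1 (log2 2.05), Ly6a (1.92) and Pdgfra (1.70) among them, and Col3a1 was called lower (-0.76), while their summed level overlapped between the groups. In TRF2MuSC-cKO Col1a1 was called higher (1.72) and the sum was 2.41-fold higher without overlap. The sum of 6 myofiber markers was 1.33-fold higher in control and 1.75-fold higher in TRF2MuSC-cKO, both without overlap. The part of these cell types in the changes of the 10 genes was not tested. In such bulk samples a change in the share of cells cannot be told apart from a change in RNA per cell.

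**Figure D3:**
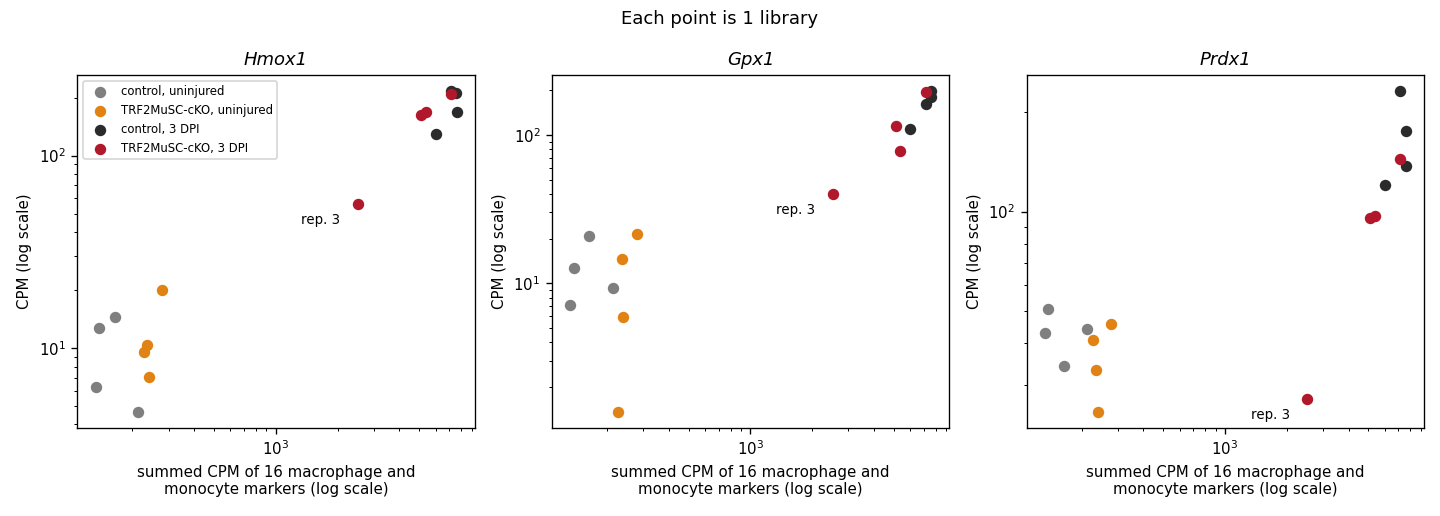
CPM of Hmox1, Gpx1 and Prdx1 (vertical axes, log scale) against the summed CPM of 16 macrophage and monocyte markers (horizontal axes, log scale), 1 point per library and 4 libraries per group. Injured libraries lie to the upper right, from 6007 CPM of summed markers upwards in control, and the third TRF2MuSC-cKO library at 3 DPI (rep. 3) lies at 2514 CPM, between the other injured and the uninjured libraries in Hmox1 and Gpx1 and among the uninjured levels in Prdx1.

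The genes with the most similar profiles over the 16 libraries were listed for each gene called, by Pearson correlation of log2 CPM among 16486 genes. These correlations are descriptions over 16 libraries that share the injury contrast. For Hmox1 they were Sh3bgrl3 (0.983), Cd68 (0.982), a lysosomal protein of macrophages, and Tnfaip3 (0.981), an inhibitor of NF-κB signalling. For Gpx1 they were Hpgds (0.968), a glutathione-dependent prostaglandin D synthase, Sdcbp (0.967) and Sh3bgrl3 (0.967). Prdx1 ran closest to Anxa1 (0.959), Ctsz (0.956) and Gusb (0.951), the last 2 lysosomal enzymes. Gclm had lower values, with Mfap3 (0.809), Lias (0.806) and Ifi205 (0.806), and so did Txnrd1, with Eif3b (0.877), M6pr (0.862) and Ndufa2 (0.845). Among the 10 genes themselves Hmox1 and Gpx1 were most alike (0.953), then Hmox1 and Prdx1 (0.859) and Prdx1 and Gpx1 (0.853). With each group's mean removed these became 0.744, 0.739 and 0.49, and Sod1 with Prdx1 (0.84) and Sod2 with Prdx1 (0.835) were higher. Hmox1 and Nqo1 were at 0.15 over the 16 libraries and at -0.538 with group means removed.

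No difference between genotypes passed for any of the 10 genes that could be tested. In uninjured MuSCs 6 of the 10 had enough counts to be tested (Hmox1, Nqo1, Gclm and Gpx1 did not), and 0 were called by edgeR, where 0.584% of 14048 genes were called higher and 2.63% lower. At an unadjusted p under 0.05 there were 2, Sod2 (log2 -0.67, SE 0.31, adjusted p = 0.223) and Sod1 (log2 -0.57, SE 0.27, adjusted p = 0.231). Sod2 was lower in all 4 TRF2MuSC-cKO libraries than in any control (exact two-sided permutation p = 0.0286), which held for 9.18% of the genes tested. The Sod1 libraries overlapped. The median log2 difference of the 6 tested genes was -0.17, against 0.06 over all genes tested, and their 95% intervals lay between -1.30 and 0.86. The MuSC markers were lower in the same comparison (7 of 10 called, sum 0.537 of control) and the macrophage sum was higher without overlap (1.54-fold, with 9 of 10 tested markers estimated above 0), and their part was not tested. When the filter on low counts was dropped, the 4 untested genes had log2 differences of 0.33 (Hmox1), 0.35 (Nqo1), 0.61 (Gclm) and -0.16 (Gpx1), with SEs of 0.61 to 0.70. No alternative of the processing called any of the 10.

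At 3 DPI all 10 were tested between genotypes and 0 were called by edgeR, where 0% of 14559 genes were called in either direction. Txnrd1 alone had an unadjusted p under 0.05 (log2 -0.74, SE 0.27, adjusted p = 0.473). Its TRF2MuSC-cKO libraries, at 62.3 to 111 CPM, overlapped the controls, at 97.3 to 149.8 CPM, in the first library of each. Prdx1 followed with a log2 difference of -0.83 (SE 0.40, adjusted p = 0.536). It ran from -1.15 to -0.0926 over 19 alternatives and was -0.55 without the third TRF2MuSC-cKO library. Nqo1 had the highest estimate, 1.55 (SE 0.84, adjusted p = 0.579), and 0.46 without that library. The median of the 10 was -0.44, against 0.001 over all genes tested, and 8 of 10 estimates were below 0. Replicates 1 and 2 alone turned the sign of Hmox1 (0.152), Sod1 (0.162) and Sod2 (0.269) upward and of Nqo1 (-0.333) downward. The 95% intervals of the 10 genes reached from -1.997 (Sod2) to 3.36 (Nqo1), so that differences of several-fold could go undetected. The macrophage sum was 2514 to 7145 CPM in TRF2MuSC-cKO and 6007 to 7598 CPM in control, and the MuSC sum 491 to 680 and 1044 to 1519 CPM, and their part was not tested. The difference between the injury responses of the genotypes was fitted on all 16 libraries: 0 of the 10 genes were called and 0 had an unadjusted p under 0.05 (edgeR), where 0% of 16822 genes were called higher and 0.0178% lower. Those estimates ran from -1.02 (Gclm) to 1.19 (Nqo1), each with a 95% interval that included 0, and no alternative tool called any of the 10. The injury calls in control and in TRF2MuSC-cKO were therefore not shown to differ for Prdx1, Gclm or Txnrd1.

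The prefixes of the sample descriptions (JH133, JH134, JH135, JH139 and JH140), which the labels do not explain, divide the libraries. In uninjured MuSCs they coincide with the genotype, so prefix and genotype cannot be told apart there. At 3 DPI JH133 holds replicates 1 and 2 of both genotypes, and replicates 3 and 4 are JH140 in control and JH139 in TRF2MuSC-cKO. JH134 and JH135 hold uninjured libraries only and JH133 injured libraries only, so prefix and injury partly coincide too. Within JH140, 1 uninjured and 2 injured control libraries allow a ratio without a test: 15.2 for Hmox1, 14.2 for Gpx1, 4.01 for Prdx1, 3.67 for Gclm and 1.53 for Txnrd1. Both injured libraries were above the uninjured one for each of the 5. That also held for Srxn1 (2.21) and Gclc (1.74), which were not called, but not for Nqo1, Sod1 and Sod2. Within JH139, 1 uninjured and 2 injured TRF2MuSC-cKO libraries gave 11.4 for Hmox1 and 1.5 for Prdx1, of which 1 injured library was above the uninjured one. Both injured libraries of that prefix were above the uninjured one for Gpx1, which had 1 count there.

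Other genes of the same pathways moved in both directions on injury. Their counts stand against the shares over all genes tested, 10.8% higher and 9.46% lower in control and 2.43% and 1.61% in TRF2MuSC-cKO. Among 10 regulators of NRF2, Nfe2l2 itself rose in control by 1.04 on the log2 scale (SE 0.21, adjusted p = 0.000106), from 64.3 to 110.8 CPM up to 148 to 224 CPM, and so did the repressor Bach1 (1.21, SE 0.20, adjusted p = 3.10e-06). The small MAF genes Mafk (-1.45) and Maff (-1.87) fell, and the other 6, Keap1 among them (0.21, SE 0.21, adjusted p = 0.567), were not called. In TRF2MuSC-cKO Mafk fell (-1.49) and none of the 10 rose. Nfe2l2 was there at 1.02 (SE 0.30, adjusted p = 0.0642). Of 20 tested genes among other NRF2-linked enzymes and transporters, 6 rose and 3 fell in control. Those of smallest p were Pgd (2.53), Tkt (2.94) and G6pdx (1.97), which supply NADPH or belong to the pentose phosphate pathway, on the rising side, and Ephx1 (-2.28), Gstm1 (-2.12) and Aox1 (-1.63), which handle xenobiotics, on the falling side. In TRF2MuSC-cKO 3 of 20 rose, Taldo1, Tkt and Idh1, and none fell. These calls in TRF2MuSC-cKO were lost under 6 of 17 alternatives for Taldo1, 5 of 18 for Tkt, 8 of 17 for Idh1 and 6 of 18 for Mafk, with adjusted p up to 0.047.

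Of 12 genes of heme breakdown, heme transport and iron 7 rose in control and 1 fell. Ftl1, the ferritin light chain, was at 143 to 244 CPM in uninjured and 2687 to 4510 CPM in injured controls, a log2 change of 4.27 (SE 0.22, adjusted p = 1.24e-19). Fth1, the heavy chain, rose by 2.05 and Hmox2, the constitutive heme oxygenase, by 1.87, while Cp, the copper oxidase ceruloplasmin, fell (-2.41). In TRF2MuSC-cKO Ftl1 (4.58), Fth1 (2.32) and the transferrin receptor Tfrc (1.66) rose and none fell. The Tfrc call there was lost under 10 of 18 alternatives (adjusted p up to 0.106). Of the 8 heme synthesis genes Alas1, the first enzyme, rose in control (1.16, SE 0.27, adjusted p = 0.00108) and Ppox fell (-1.22), and each call was lost under 4 of 18 alternatives (adjusted p up to 0.082 and 0.0847). These counts, 1 of 8 in each direction, are near the shares over all genes tested (10.8% higher and 9.46% lower). In TRF2MuSC-cKO none of the 6 tested had an unadjusted p under 0.05 (edgeR).

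The glutathione and thioredoxin lists are described by single genes, since their few calls in control are not set apart from the 10.8% of all genes tested called higher and the 9.46% called lower. In the glutathione list 3 of 13 tested genes rose in control (Glrx 2.28, Slc3a2 0.72, Gpx4 1.00) and 2 fell (Gpx3 -2.68, Gstt1 -1.39). Gpx3, a secreted peroxidase, thus fell where Gpx1 rose, and it fell in TRF2MuSC-cKO as well (-2.98). The calls in control were lost under 10 of 17 alternatives for Gstt1 (adjusted p up to 0.334), 8 of 18 for Gpx4 (up to 0.136) and 4 of 18 for Slc3a2 (up to 0.199). In the thioredoxin and peroxiredoxin list 3 of 16 rose in control (Prdx5 1.75, Msrb1 2.29, Txn1 1.43) and 2 fell (Txnip -1.98, Msrb3 -0.97), and in TRF2MuSC-cKO 2 of 14 rose (Txn1 2.64, Msrb1 2.87). Alternatives ended the call of Msrb3 in control in 10 of 18 (adjusted p up to 0.106) and of Txn1 in 3 of 17, and in TRF2MuSC-cKO that of Msrb1 in 9 of 17 (up to 0.123) and of Txn1 in 4 of 17. Of 3 tested genes in the metallothionein list, which also held the regulator Mtf1, Mt1 (-1.39) and Mt2 (-1.98) fell in control. Mt2 fell in TRF2MuSC-cKO (-1.78), a call lost under 2 of 18 alternatives. Of 9 oxidant sources 7 rose in control, among them the phagocyte NADPH oxidase subunits Cybb (4.61) and Cyba (4.32), and Cybb (3.75), Ncf1 (3.51) and Xdh (2.06) rose in TRF2MuSC-cKO. The macrophage sums given above moved with these genes too.

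**Figure D4:**
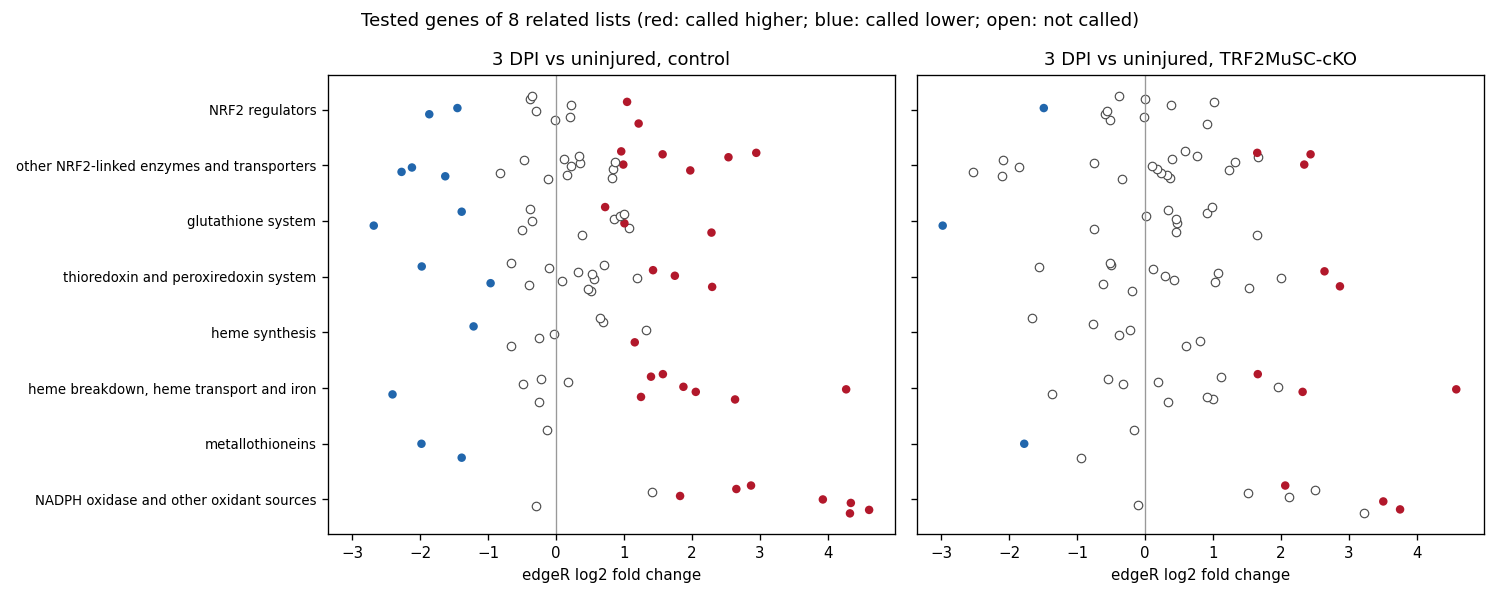
Log2 fold change on injury (horizontal axis, edgeR) of the tested genes of 8 lists in control (left) and TRF2MuSC-cKO (right), 1 point per gene, red where called higher, blue where called lower and open where not called. In control the oxidant sources (7 of 9 higher) and the genes of heme breakdown, heme transport and iron (7 of 12 higher) lie furthest to the right. The metallothionein list (2 of 3 tested genes lower) lies to the left.

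Between genotypes in uninjured MuSCs the 8 lists held 6 called genes, all lower in TRF2MuSC-cKO, where 2.63% of all genes tested were called lower and 0.584% higher. They were 1 of 19 tested other NRF2-linked genes, 1 of 11 in the glutathione list and 2 of 13 in the thioredoxin and peroxiredoxin list. The others were 1 of 11 genes of heme breakdown, heme transport and iron and 1 of 3 tested in the metallothionein list. The MuSC markers were lower in the same libraries (7 of 10 called, sum 0.537 of control). The fibroadipogenic sum was 0.294 of control and the Schwann sum 1.42-fold higher, both without overlap. Col3a1 was called lower (log2 -2.13) and Dcn called higher (1.20). Of 5 tested fibroadipogenic markers 4 were estimated above 0, so the sum went the other way from most of its single markers. The pericyte markers Rgs5 (1.33) and Cspg4 (0.88) were called higher, although the libraries overlapped for each. Of 6 pericyte and smooth muscle markers 4 were estimated above 0, while Acta2 (-0.54) and Kcnj8 (-0.42) were below it. Their sum was 1.13-fold that of control and overlapped. The part of these markers was not tested. The 6 genes were Cp (log2 -1.07, SE 0.22, adjusted p = 0.00151), Mt2 (-1.03), Gpx3 (-0.96), the thioredoxin inhibitor Txnip (-0.97), the mitochondrial thioredoxin Txn2 (-1.43) and Park7 (-1.10), the oxidant-sensing protein DJ-1. The Park7 call was lost under 11 of 18 alternatives (adjusted p up to 0.201), that of Txnip under 5 of 18 (up to 0.144), that of Txn2 under 4 of 17 (up to 0.112), and those of Cp, Mt2 and Gpx3 under 3 of 18 each (up to 0.0906).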

How the data were processed

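Groups and replicate numbers came from the sample records. The authors trimmed reads (Trim Galore 0.6.7 in the submitters' processing notes), aligned them to GRCm38 with STAR (2.6.1d in those notes, a different version in the study's methods) and quantified them with Salmon (1.5.2 in those notes), and they deposited estimated counts per gene, not normalized, together with a second table of estimated counts rescaled to each library's total. Whether the unique molecular identifiers of the CORALL total RNA kit were used to collapse reads was not given in the sources used here. Gene positions are from GENCODE M21 (GRCm38), which matched 23376 of 24411 symbols.

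The 10 genes, the gene lists and the tests were chosen with earlier results of these data known. The lists cover 8 pathways and 10 cell types. On injury in control the lymphocyte and Schwann lists had 0 genes called, the endothelial (Tek) and pericyte (Acta2) lists 1 lower each, the myofiber list (Ckm) 1 higher and the fibroadipogenic list 5 higher and 1 lower. Named from each pathway list are the called genes, at most 3 per direction by smallest p; from the marker lists, called genes and the most abundant one; and for each gene called, the 3 most correlated genes among those averaging 3 or more on the log2 CPM scale. A gene that this rule names is not reported here.

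Counts were rounded. The 8 libraries of each comparison (16 for the difference between injury responses) were filtered with filterByExpr, scaled by TMM and tested with edgeR 4.0.16 (robust quasi-likelihood, R 4.3.3), with Benjamini-Hochberg adjustment over all genes tested. CPM used TMM over 16 libraries, and log2 CPM had a prior count of 2. The procedure was tested on simulated data. At a simulated log2 change of 2 it recovered 82% of changed genes between genotypes in uninjured MuSCs and 85% for injury in control. It recovered 19% between genotypes at 3 DPI, 18% for injury in TRF2MuSC-cKO and 3% for the difference between injury responses. At a simulated log2 change of 1 recovery was 7% between genotypes in uninjured MuSCs and 21% for injury in control. In the other comparisons it was at most 1%. Alternatives were limma 3.58.1 (robust fit and voom), DESeq2 1.42.0, median-of-ratios factors, library size alone, no filter, at least 10 counts in every library, the rescaled table, a replicate block, all 16 libraries in 1 fit, the JH133 libraries alone at 3 DPI, and each library left out.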

Additional observations from a re-analysis of the deposited data

Results flagged for a closer look

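Of 40 groups of 4 libraries (10 genes in 4 groups), 3 held a library that stood apart from the other 3 by Dixon's test at the 95% level, where chance gives about 1 in 20. All 3 were injured controls. Gclc was at 28.8 CPM in replicate 4, against 47.7 to 51.0 CPM in the others. Sod2 was at 82.3 CPM in the same replicate, against 40.8 to 44.8 CPM. Txnrd1 was at 97.3 CPM in replicate 1, against 146 to 149.8 CPM. Replicate 1 also had the lowest macrophage sum of the injured controls (6007 CPM, against 7152 to 7598 CPM), and its part in the Txnrd1 value was not tested.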

How the results depend on the processing

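Hmox1, Gpx1 and Prdx1 were called higher in injured controls under all alternatives that tested them (17, 17 and 18), and Hmox1 in injured TRF2MuSC-cKO under 16 of 17, all but limma-voom (adjusted p = 0.028). No alternative called any of the 10 genes between genotypes or in the difference between injury responses. The calls of Gclm and Txnrd1 in control, of Gpx1 in TRF2MuSC-cKO and the miss of Prdx1 there changed with the setting or the library left out. Requiring 10 counts in every library removed Hmox1, Gpx1 and Gclm from testing, so that 2 of the 10 genes were called in control and 0 in TRF2MuSC-cKO. The rescaled table and 1 fit over all 16 libraries each left 3 in control. In TRF2MuSC-cKO 1 was called with limma's robust fit, the rescaled table or the replicate block, 0 with limma-voom, and 3 in the fit of all 16 libraries, Prdx1 being added. Leaving out 1 library gave 3 to 5 in control and 1 to 3 in TRF2MuSC-cKO. The cause of the other changes was not tested. Low counts limit all of this: 4 of the 10 genes could not be tested between genotypes in uninjured MuSCs.

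The counts over all genes moved as follows. Between genotypes in uninjured MuSCs (82 higher and 370 lower), limma's robust fit gave 157 and 142, library size alone 176 and 212, the rescaled counts 6 and 11, 1 fit over all 16 libraries 12 and 70, and 10 counts in every library gave 190 higher. Leaving out 1 library gave 40 to 86 higher and 214 to 488 lower. At 3 DPI (0 and 0) limma's robust fit gave 10 and 18, DESeq2 5 and 17, the fit of all 16 libraries 3 lower, the JH133 libraries alone 1 higher, and leaving out 1 library 0 to 3 higher and 0 to 13 lower, the highest values without the third TRF2MuSC-cKO library. For injury in control (1652 and 1452) the rescaled table gave 1088 higher and the fit of all 16 libraries 861 and 734. For injury in TRF2MuSC-cKO (354 and 235) limma's robust fit gave 547 and 473, DESeq2 568 and 426, the rescaled counts 174 and 109, the fit of all 16 libraries 721 and 483, and leaving out 1 library 214 to 803 and 134 to 513, the highest again without that library. For the difference between injury responses (0 and 3) limma's robust fit gave 45 and 78, DESeq2 9 and 15, 10 counts in every library 2 and 6, the rescaled counts 1 lower, and leaving out 1 library 0 to 4 and 1 to 9. Scaling by library size alone moved the median log2 difference of all genes from 0.06 to 0.24 in uninjured MuSCs, from 0.001 to 0.107 at 3 DPI, from 0.07 to 0.23 for injury in control, from 0.007 to 0.125 for injury in TRF2MuSC-cKO and from 0.035 to -0.121 for the difference between injury responses. The 5 genes called in injured controls kept their direction and their call under that scaling.

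Estimates that changed sign belonged to comparisons in which the gene was not called. Between genotypes in uninjured MuSCs, Gclc (0.01) and Srxn1 (0.01) became -0.236 and -0.0169 with limma's robust fit, -0.264 and -0.116 with limma-voom, -0.00818 and -0.00327 with median-of-ratios factors, -0.0654 and -0.0659 without the filter, -0.00806 and -0.0231 with the rescaled table and -0.105 and -0.108 with all 16 libraries. Gclc became -0.006 with DESeq2, and Prdx1 0.056 with library size alone. Leaving out 1 library gave -0.604 to 0.274 for Gclc and -0.219 to 0.232 for Srxn1. At 3 DPI the JH133 libraries alone gave 0.152 for Hmox1, -0.333 for Nqo1, 0.162 for Sod1, 0.269 for Sod2 and -0.179 for Terf2, and leaving out 1 library gave -0.668 to 0.229 for Gclm and -0.466 to 0.00306 for Hmox1. For injury in control, Sod2 was 0.14 with library size alone and 0.094 with 10 counts in every library, and leaving out 1 library gave -0.332 to 0.0964 for Sod2 and -0.115 to 0.287 for Gclc. For injury in TRF2MuSC-cKO, Sod2 was -0.584 with limma-voom, and leaving out 1 library gave -0.496 to 0.506 for Sod2, -1.29 to 0.288 for Gclc, -0.0383 to 0.424 for Txnrd1 and -0.0928 to 0.657 for Sod1. For the difference between injury responses, Sod2 was -0.49 with limma-voom and Sod1 -0.0117 with library size alone, and leaving out 1 library gave -0.357 to 0.491 for Sod2, -0.227 to 0.373 for Sod1 and -1.44 to 0.162 for Gclc.

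Deviations from the group mean correlated little between same-numbered replicates (-0.11 to 0.111). Between genotypes in uninjured MuSCs, TRF2MuSC-cKO replicates 2, 3 and 4 were each closest to the control of their own number (0.111, 0.0467 and 0.0408). In the other comparisons none was closest to its own number. Such low values cannot decide whether the numbers pair the libraries. With the replicate block, 220 genes were called higher and 144 lower on injury in TRF2MuSC-cKO, where Gpx1 was lost (adjusted p = 0.06), 1 gene was called lower in the difference between injury responses, and the estimates between genotypes in uninjured MuSCs were -0.186 for Gclc and -0.026 for Srxn1. Injury estimates under the block were -0.387 for Sod2 in TRF2MuSC-cKO and 1.58 for Gclm in control, which was lost (adjusted p = 0.0258).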
